A study of Homo sapiens with 4 samples.

Results

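The genes described here were 10 markers used to tell luminal from basal prostate epithelium: the keratins KRT8, KRT18, KRT19, KRT7 and KRT80, the basal keratins KRT5, KRT14, KRT15 and KRT17, and TP63, which encodes p63. They were chosen by symbol, and all 10 were found among the 60880 genes listed in the deposited count table. RNA-Seq was performed on 4 libraries of human prostate cancer cells, 2 from LNCaP95 (genotype WT, replicates 1 and 2) and 2 from LN95(KO) (genotype UGT2B17 KO, replicates 3 and 4). LNCaP95 is an LNCaP subline able to grow without androgen, and LN95(KO) cells are those in which CRISPR was aimed at UGT2B17, an enzyme that conjugates androgens to glucuronic acid. The parent of the knockout line is given in different ways. Every sample label has LN95 as cell line, and the study states that LN95(KO) was made from LNCaP95. By contrast, the design text of the series writes LNCaP(UGT2B17 KO). If that text were right, a difference between UGT2B17 genotypes and one between LNCaP and its subline could not be told apart in any value below. Both lines were kept in RPMI1640 with charcoal-stripped serum and were not treated. How many knockout clones there were was not given, and nothing in the labels said that the replicates were separate cultures, so the p-values below measure only the spread between these libraries.

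Keratins are the intermediate filament proteins of epithelia. Each filament is built from pairs of a type I (acidic) and a type II (basic) chain, and the KRT genes lie in a type II cluster on chromosome 12, which also holds the type I gene KRT18, and a type I cluster on chromosome 17. In the prostate, KRT8 with KRT18 marks the luminal secretory cells, KRT5 with KRT14 marks the basal cells on the basement membrane, KRT19 is often found in cells between these states, and p63 is the transcription factor required for basal cells to form.

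UGT2B17 itself fell from 150.3 ± 0.720 CPM (SD, n = 2) in LNCaP95 to 1.14 ± 0.0639 CPM in LN95(KO), where CPM is the read count scaled to a common library size by TMM (log2 fold change -7.04, SE 0.102, adjusted p = 1.18e-18). Depth was similar in all libraries, from 17330338 to 18813193 gene reads, and 3 reads, the most that a count of 0 allows, corresponded to 0.162 to 0.169 CPM, which covers counting error only. A gene was called when its adjusted p in the edgeR quasi-likelihood test was under 0.05 and its fold change was over 2. Of 15626 genes tested, 18.0% were called, 8.86% higher in LN95(KO) and 9.13% lower, and 59.8% passed the adjusted p alone, 29.8% higher and 30.1% lower. The 2 groups did not overlap in 79.8% of all genes tested.

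Of the 10 genes, 5 had enough reads to be tested: KRT8, KRT18, KRT19, KRT80 and KRT14. KRT19 and KRT14 rose in LN95(KO), KRT80 fell, KRT8 was higher by less than 2-fold, and KRT18 was not distinguished between the lines by the test. The number called was 3 of 5 tested, and 18.0% of all genes were called. The median log2 fold change of the 5 was 0.39, and that of all genes -0.00804. KRT14 passed the count filter only through LN95(KO), where it was high, so the count and the median are descriptions of the genes that passed and not of all 10. The other 5 genes, KRT7, KRT5, KRT15, KRT17 and TP63, had at most 5 reads in every library. By CPM the groups did not overlap for 7 of the 10 genes. Of these, 4 were among the 5 tested, beside 79.8% of all genes tested. The others were KRT5, KRT15 and KRT17, at 5 reads or fewer.

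**Figure D1:**
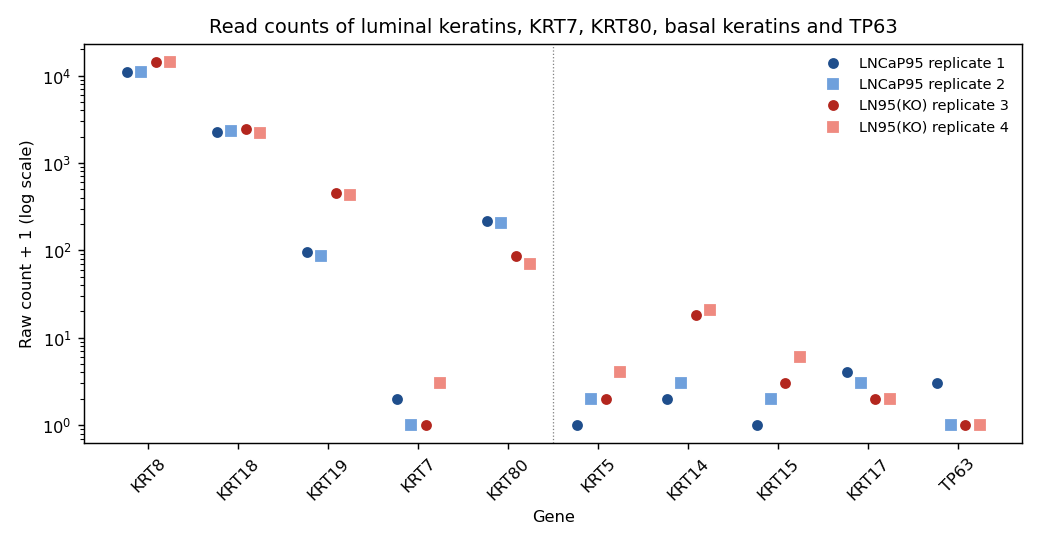
Raw read counts plus 1 (log scale, vertical axis) of the 10 genes (horizontal axis) in each LNCaP95 library (blue) and each LN95(KO) library (red). A dotted line separates KRT8, KRT18, KRT19, KRT7 and KRT80 from the basal keratins and TP63. KRT8 and KRT18 have at least 2205 reads in all libraries, whereas KRT7, KRT5, KRT15, KRT17 and TP63 are at 5 reads or fewer.

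KRT8, the type II keratin of simple epithelia, had by far the most reads of the 10 genes. KRT8 (ENSG00000170421.12_4, GRCh37 chr12:53290971-53343738, minus strand, protein coding) had 11085 and 11112 reads in the LNCaP95 libraries and 14168 and 14233 reads in the LN95(KO) libraries. Both knockout libraries were above both parental ones, and the replicates of each line were close to each other. The level went from 602.8 ± 4.31 CPM to 789.1 ± 14.5 CPM, a 1.31-fold difference (log2 fold change 0.39, SE 0.0449, adjusted p = 9.69e-07). This passed the adjusted p and not the 2-fold criterion.

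KRT18, the type I partner of KRT8, gave no call. KRT18 (ENSG00000111057.10_5, chr12:53342655-53346690, plus strand, protein coding) had 2250 and 2308 reads in LNCaP95 and 2457 and 2205 reads in LN95(KO). The highest and the lowest of these counts both came from the knockout line, so the groups overlapped. Mean levels were 123.8 ± 2.90 CPM and 129.6 ± 12.7 CPM (log2 fold change 0.07, SE 0.0614, adjusted p = 0.369). The direction rested on LN95(KO) replicate 3: without it the log2 fold change was -0.04 (adjusted p = 0.556), and without LN95(KO) replicate 4 it was 0.16 (adjusted p = 0.0112).

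The ratio of KRT8 to KRT18 was therefore compared within each library. On levels per kilobase of transcript, KRT8 was 3.90 and 3.81 times KRT18 in LNCaP95 and 4.57 and 5.11 times KRT18 in LN95(KO). Both knockout libraries had the higher ratio, without overlap, and no test was applied to 2 values a group. The KRT18 value is the less certain of the pair. The genes KRT8 and KRT18 overlap by 1084 bases on opposite strands, strand was not used in counting, and htseq leaves out a read that falls on both. Of the annotated exon bases, 20.0% in KRT18 and 7.63% in KRT8 are also exon of another gene. Windows of 100 bases in the main transcript were also searched for in the transcripts of all other genes, on both strands, so that the overlap itself is counted again. Of these windows, 18.5% in KRT18 occur unchanged in another gene, all in KRT8, and 7.12% in KRT8 do, mostly in the processed pseudogene KRT8P3 (4.21%). With windows of 50 bases the shares were 54.3% for KRT18, over 47 other genes, and 39.2% for KRT8, over 38.

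Reads assigned to the many pseudogenes of this pair, which were examined after the data had been seen, were few. The 51 annotated KRT8 pseudogenes summed to 323 and 284 reads in LNCaP95 and 243 and 297 reads in LN95(KO), at most 2.91% of the KRT8 count of the same library. The LNCaP95 and LN95(KO) sums overlapped, unlike KRT8 itself. The 67 KRT18 pseudogenes summed to 26 to 29 reads in each library. Reads without a unique alignment, 3.78% to 3.86% of entries in each library, were counted for no gene. How many of them came from this pair was not tested.

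KRT19, the smallest type I keratin, which lacks most of the tail domain of the others, rose from a low level. KRT19 (ENSG00000171345.13_2, chr17:39679869-39684560, minus strand, protein coding) had 94 and 86 reads in LNCaP95 and 447 and 427 reads in LN95(KO). Each knockout library was far above each parental library, with a spread between replicates that was small beside this gap. The level went from 4.89 ± 0.281 CPM to 24.3 ± 1.31 CPM (4.96-fold, log2 fold change 2.31, SE 0.116, adjusted p = 1.65e-11). Of its sequence little is shared: 0% of its 100-base windows and 1.79% of its 50-base windows occur in another gene, the pseudogene KRT19P1. KRT19 did not reach KRT18 in either line, as KRT18 was 23.6 and 26.4 times KRT19 per kilobase in LNCaP95 and 5.41 and 5.08 times KRT19 in LN95(KO).

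KRT7, a type II keratin of simple and ductal epithelia, was at the limit of detection. KRT7 (ENSG00000135480.15_3, chr12:52626304-52645970, plus strand) had 1 and 0 reads in LNCaP95 and 0 and 2 reads in LN95(KO). The groups overlapped, and the ratio of pooled scaled counts, 2.05, had a 95% exact counting interval of 0.107 to 121. KRT7 also shares 7.05% of its exon bases with KRT7-AS on the other strand.

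KRT80, a type II keratin that is found in many epithelia and near desmosomes in cells that mature, was the gene of the 10 that fell. KRT80 (ENSG00000167767.13_3, chr12:52562780-52585798, minus strand, protein coding) had 215 and 205 reads in LNCaP95 and 85 and 69 reads in LN95(KO). Both knockout libraries lay below both parental libraries. From 11.4 ± 0.322 CPM the level dropped to 4.29 ± 0.721 CPM, 2.66-fold lower (log2 fold change -1.41, SE 0.149, adjusted p = 3.09e-07). No 100-base window of its transcript occurs in another gene.

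Among the basal keratins, KRT14 was the only one with enough reads for the test, and only through LN95(KO). KRT14 (ENSG00000186847.5_2, chr17:39738531-39743147, minus strand, protein coding) is the type I keratin that pairs with KRT5 in basal cells. KRT14 is nearly identical over parts of its coding sequence to KRT16 and KRT17, the type I keratins of wounded and appendage epithelium that lie beside it in the cluster, and 60 coding bases are shown because a read from within it matches KRT16 in full and KRT17 but for 1 base. The capital letter marks the position at which the 3 genes are not all the same, and positions are counted from the first base of the coding sequence (GENCODE release 44 transcripts on GRCh37, minus strand).
KRT14 positions 352 to 411, chr17:39742676-39742735: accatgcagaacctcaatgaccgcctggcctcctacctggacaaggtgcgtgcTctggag
KRT16 positions 358 to 417, chr17:39768524-39768583: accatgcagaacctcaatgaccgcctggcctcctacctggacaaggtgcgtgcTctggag
KRT17 positions 259 to 318, chr17:39780444-39780503: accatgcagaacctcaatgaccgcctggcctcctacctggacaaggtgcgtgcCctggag
In this stretch KRT14 and KRT16 differ at 0 positions and KRT14 and KRT17 at 1. It is an extreme of the gene, since over the 454 windows of 60 bases that start at each codon the median number of differences was 6 to KRT16 and 7 to KRT17. Of the 100-base windows of KRT14, 6.05% occur unchanged in another gene, and of the 50-base windows 24.2% do.

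KRT14 had 1 and 2 reads in LNCaP95 and 17 and 20 reads in LN95(KO). Both knockout libraries were above both parental ones, which held no more than the limit that a count of 0 allows. The level was 0.0816 ± 0.0389 CPM in LNCaP95 and 1.03 ± 0.0957 CPM in LN95(KO). The ratio of pooled scaled counts was 12.6, with a 95% exact counting interval of 3.99 to 64.0, and the fitted log2 fold change was 3.55 (SE 0.595, adjusted p = 6.25e-05). KRT16 had 0 reads in all 4 libraries, and KRT17 had its few reads mostly in LNCaP95.

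The remaining basal keratins stayed near the floor in both lines. KRT5 (ENSG00000186081.11_5, chr12:52908359-52914314, minus strand), the type II partner of KRT14, had 0 and 1 reads in LNCaP95 and 1 and 3 reads in LN95(KO). KRT15 (ENSG00000171346.15_3, chr17:39669997-39678781, minus strand), a type I keratin of basal and stem-like cells, had 0 and 1 reads and then 2 and 5 reads. KRT17 (ENSG00000128422.16_4, chr17:39775694-39781094, minus strand) had 3 and 2 reads and then 1 and 1 read. KRT5 and KRT15 thus had the higher counts in LN95(KO) and KRT17 the higher counts in LNCaP95, although for KRT5 a parental and a knockout library both had 1 read and the groups were apart only through library size. The pooled ratios were 4.09 (95% exact interval 0.405 to 202) for KRT5, 7.16 (0.920 to 323) for KRT15 and 0.409 (0.0390 to 2.50) for KRT17, and all 3 intervals include equal levels. Tested with no filter on low counts, the adjusted p was 0.506 for KRT5, 0.165 for KRT15 and 0.597 for KRT17.

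TP63 (ENSG00000073282.12_3, chr3:189349178-189615065, plus strand) had 2 and 0 reads in LNCaP95 and 0 and 0 reads in LN95(KO). The 2 reads lay in 1 parental library, both groups were under the floor of 3 reads, and no fold was formed. At this depth TP63 transcripts were not detectable above the floor in any library, including the knockout libraries in which KRT14 was counted.

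Genes of the same cluster had unlike counts. KRT15 and KRT19 are neighbours, 1087 bases apart and on the same strand, and KRT19 had 447 and 427 reads in LN95(KO) where KRT15 had 2 and 5. KRT14 and KRT17 are 32546 bases apart, and KRT14 had 17 and 20 reads where KRT17 had 1 and 1. On chromosome 12, KRT80 fell while KRT8 was higher.

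Levels of different genes were compared only per kilobase of the main transcript. In LNCaP95 the order was KRT8 (337.9 CPM per kilobase), KRT18 (87.6), KRT19 (3.52), KRT80 (2.95) and then KRT17 (0.0894) and KRT14 (0.0499). KRT19 and KRT80 were neighbours with a narrow gap, at 3.66 and 3.37 CPM per kilobase for KRT19 and 3.0 and 2.89 for KRT80, without overlap. The order in LN95(KO) was KRT8 (442.3), KRT18 (91.8), KRT19 (17.5), KRT80 (1.11), KRT14 (0.628) and KRT15 (0.113). The gap between KRT19 and KRT80 was thus wide in the knockout line, while the genes below KRT80 in LNCaP95, all at 3 reads or fewer in each library, could not be ordered by their counts.

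Since keratins form filaments as pairs, the summed level of each chain type was examined over all 26 type II and 29 type I keratin genes, 55 in all, of which 25 had 0 reads in every library. Type II keratins summed to 340.7 and 344.4 CPM per kilobase in LNCaP95 against 452.5 and 440.9 in the knockout line, and the means differed 1.30-fold. KRT8 made up 98.6% to 99.0% of this sum in each library. For type I keratins the sums were 106.1 and 107.8 CPM per kilobase in the parental line against 130.4 and 117.0 in the knockout line, a 1.16-fold difference.

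The make-up of the type I sum also differed between the lines. KRT18 held 81.2% and 82.6% of it in LNCaP95 and 75.2% and 73.0% in LN95(KO). The second gene was KRT10, a keratin of differentiated epidermis, in LNCaP95 (14.9% and 13.8%) and KRT19 in LN95(KO) (13.9% and 14.4%). On the log2 scale the difference in the type I sum was 0.21, and 0.13 without LN95(KO) replicate 3. The type II sum was 3.21 and 3.20 times the type I sum in LNCaP95 and 3.47 and 3.77 times in LN95(KO), without overlap and untested.

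**Figure D2:**
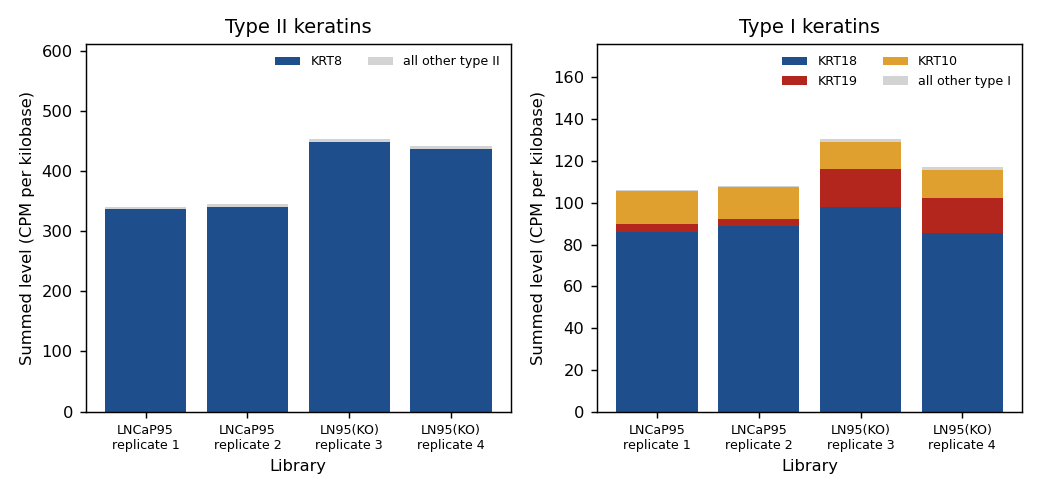
Summed level of type II (left) and type I (right) keratin genes in CPM per kilobase (vertical axes, starting at 0) for each library (horizontal axes), stacked by gene. KRT8 fills nearly all of every type II bar, and the KRT19 part of the type I bars is 3.66 and 3.37 CPM per kilobase in LNCaP95 and 18.1 and 16.8 in LN95(KO).

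Beyond the 10 genes, 3 further keratins passed the count filter. KRT6C, a type II keratin of stratified and wounded epithelium, had 0 and 4 reads in LNCaP95 and 95 and 118 reads in LN95(KO), with no overlap (log2 fold change 5.68, SE 0.425, adjusted p = 3.75e-09). Of its 100-base windows 31.4% occur in another gene, 23.8% in KRT6B, so reads of these 2 genes may not be fully separated. KRT75, a type II keratin of the hair follicle, had 51 and 59 reads in LNCaP95 and 11 and 5 reads in LN95(KO) (log2 fold change -2.73, adjusted p = 2.35e-06). KRT10 had 628 and 584 reads and then 498 and 526 reads, lower by less than 2-fold (log2 fold change -0.21, adjusted p = 0.0252). Of the 8 keratins tested, 5 were called, 3 higher (KRT6C, KRT14 and KRT19) and 2 lower (KRT75 and KRT80). Both KRT6C and KRT14 entered the test only through their reads in LN95(KO), and KRT75 would not have entered on its LN95(KO) reads alone. This count therefore describes the genes that passed the filter, and 18.0% of all genes were called. KRT2, an epidermal keratin that was not tested and was picked after its values were seen, had 0 and 0 reads and then 8 and 6 reads. This was 4.77-fold higher against 3 reads over the group (95% exact lower bound of the pooled ratio 3.39).

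**Figure D3:**
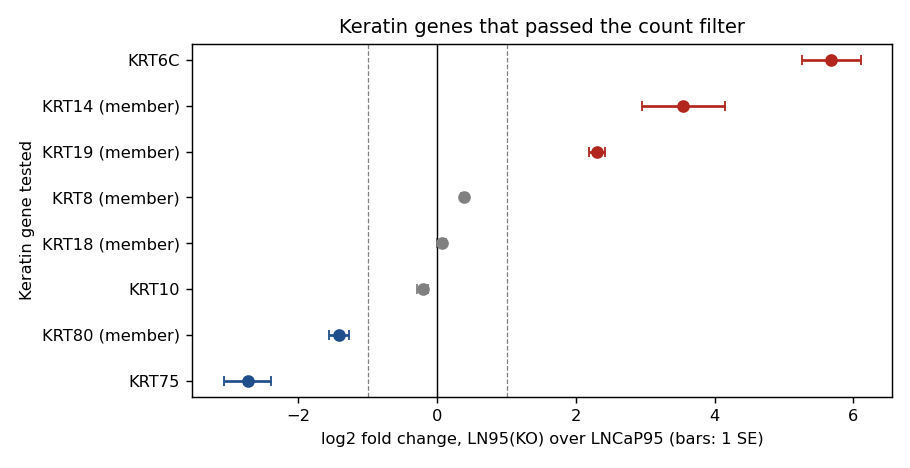
Log2 fold change of LN95(KO) over LNCaP95 (horizontal axis) for the 8 keratin genes that passed the count filter (vertical axis), with bars of 1 SE and dashed lines at a 2-fold change. Red genes were called higher, blue genes lower and grey genes were not called. KRT8 and KRT18 lie within 2-fold, between KRT19 at 2.31 and KRT80 at -1.41.

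Genes that work beside the keratins were described from lists. Desmosomes anchor keratin filaments at cell contacts, and 13 of 19 desmosome and keratin linker genes were tested, with 1 called higher, 1 lower (15.4%, beside 18.0% of all genes) and a median log2 fold change of 0.19. By the adjusted p alone 8 were higher and 3 lower. The desmosomal cadherin DSC2 rose from 39.5 to 103.4 CPM (log2 fold change 1.39, adjusted p = 2.02e-12). The plaque protein PKP2 fell by 1.01 on the log2 scale (adjusted p = 2.31e-06), close to the 2-fold criterion. The list's count was 1 without LNCaP95 replicate 2 and 1 without LN95(KO) replicate 4. JUP, plakoglobin, which had the highest mean CPM of the list over the 4 libraries, was at 456.5 and 520.5 CPM (log2 fold change 0.19, adjusted p = 0.00186, not called).

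Hemidesmosomes anchor the keratins of basal cells to laminin in the basement membrane. Of 8 genes 7 were tested, with 3 called higher and 1 lower (57.1%) and a median of 0.63. LAMA3 and LAMB3, laminin chains of epithelial basement membranes, were among the genes that rose. LAMA3 had 801 and 798 reads in LNCaP95 and 7227 and 6628 reads in LN95(KO) (log2 fold change 3.15, adjusted p = 6.55e-17). LAMB3 rose from 1.06 to 5.87 CPM (log2 fold change 2.46, adjusted p = 6.43e-08). ITGB4, an integrin chain that binds laminin and links to keratins, fell from 11.9 to 2.94 CPM (log2 fold change -2.02, adjusted p = 5.45e-09). ITGA6, the integrin chain that pairs with ITGB4, named after its values were seen, was at 68.0 and 105.5 CPM, higher in the knockout line by less than 2-fold (log2 fold change 0.63, adjusted p = 4.81e-08, not called).

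Transcription factors related to TP63 or to epithelial differentiation gave 1 call in 14 tested of 19 (7.14%), with a median of -0.10. This was GRHL1, a grainyhead factor of epithelial junction genes, which rose from 7.36 to 15.6 CPM (log2 fold change 1.09, adjusted p = 3.31e-07). TP73, a relative of TP63 that was named after its values were seen, had 59 and 49 reads and then 51 and 51 reads (adjusted p = 0.855), so its groups overlapped.

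Other basal cell markers did not move one way. Of 17 genes 12 were tested, with 4 called higher and 1 lower (41.7%) and a median of 0.08. FAT2, an atypical cadherin of basal epithelium, had 2 and 2 reads in LNCaP95 and 16 and 11 reads in LN95(KO) (log2 fold change 2.71, adjusted p = 0.00109). SFN, the epithelial protein 14-3-3 sigma, had 5 and 2 reads and then 22 and 22 reads (log2 fold change 2.64, adjusted p = 1.6e-04). EGFR, the epidermal growth factor receptor, rose from 30.1 to 107.1 CPM (log2 fold change 1.83, adjusted p = 6.94e-13). TRIM29 fell by 1.37 on the log2 scale (adjusted p = 6.04e-06), and JAG2, a Notch ligand with the highest mean CPM of the list over the 4 libraries, had a log2 fold change of 0.04 and was not called. The basal surface markers NGFR and CD44, named after their values were seen, had 2 to 4 reads in every library and were not tested. The summed level of the list was 228.0 and 215.4 CPM in LNCaP95 and 277.1 and 262.3 CPM in LN95(KO).

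Of the other luminal markers all 14 matched genes were tested, 7 higher and 7 lower by sign, with MSMB and DPP4 tested only through their reads in LN95(KO). Among them 7 were called higher and 1 lower (57.1%), with a median of 0.75 that is the same with MSMB at its bound. The secretory products KLK3, which is PSA, and KLK2 rose: KLK3 from 33.1 to 407.1 CPM (log2 fold change 3.62, adjusted p = 1.51e-17) and KLK2 by 4.91 on the log2 scale. MSMB, a seminal plasma protein, had 0 and 0 reads and then 17 and 18 reads. This was 11.9-fold higher against 3 reads over the group (95% exact lower bound of the pooled ratio 9.20). DPP4, a surface peptidase, had 4 and 1 reads and then 72 and 86 reads. FOLH1, which is PSMA and had the highest mean CPM of the list over the 4 libraries, fell from 948.9 to 385.8 CPM (log2 fold change -1.30, adjusted p = 1.99e-13). The log2 fold changes of KRT8 and KRT18, at 0.39 and 0.07, were smaller in size than those of both KLK3 and FOLH1.

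Intermediate filaments other than keratins were tested for 6 of 16 genes, with 2 called higher and 1 lower (3 of 6). Over all genes 18.0% were called, and PRPH passed the count filter only through LNCaP95, where it was high. VIM, vimentin, the filament of mesenchymal cells, rose from 16.2 to 130.9 CPM (log2 fold change 3.02, adjusted p = 3.75e-16), with 24.6% of its exon bases shared with other genes. LMNB1, lamin B1 of the nuclear lamina, rose from 40.3 to 119.2 CPM, and LMNA, with the highest mean CPM over the 4 libraries, was higher by 0.53 on the log2 scale and was not called. PRPH, peripherin, fell by 1.95 on the log2 scale (adjusted p = 1.5e-04), and 71.5% of its exon bases are shared.

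**Figure D4:**
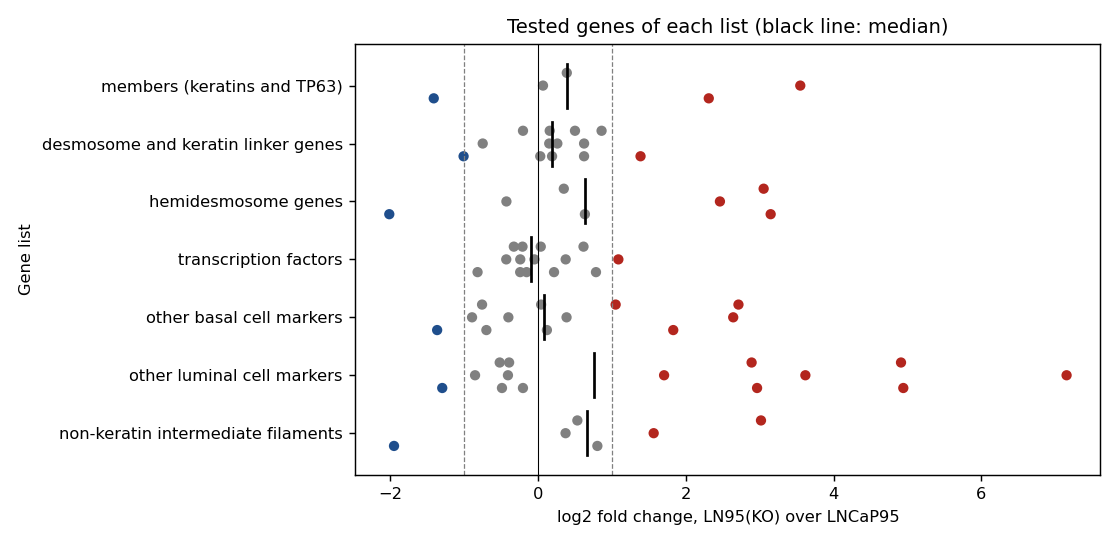
Log2 fold change of LN95(KO) over LNCaP95 (horizontal axis) of each tested gene in 7 lists (vertical axis), with called genes in red (higher) and blue (lower), dashed lines at a 2-fold change and a black line at each median. The point at the far right is MSMB, whose fitted value rests on 0 reads in LNCaP95. The medians lie between -0.10 for transcription factors and 0.75 for luminal markers.

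Markers of other cells were read for the whole of each list. Club and hillock cell markers gave 3 tested of 12, with LCN2, lipocalin, called lower (log2 fold change -2.62, adjusted p = 2.59e-08) and CLDN4, a claudin with the highest mean CPM of the list, at 0.15 and not called. Stromal markers gave 5 tested of 8, with PDGFRB called higher (log2 fold change 1.17) and LUM, lumican, called lower. LUM had 24 and 19 reads and then 0 and 0 reads, so it passed the count filter only through LNCaP95. Its level was 14.0-fold lower against 3 reads over the group (95% exact upper bound of the pooled ratio 0.0916). DCN, decorin, was at 0 in every library, COL1A1, with the highest mean CPM of the list, was at 0.22 and not called, and the list summed to 34.8 to 36.0 CPM in LNCaP95 and 38.9 to 42.4 CPM in LN95(KO). Endothelial and leukocyte markers summed to 0.541 to 0.545 CPM and then 2.99 to 3.28 CPM, nearly all of it VWF (8 and 8 reads and then 49 and 58 reads, called higher), while CDH5, CD3E and MS4A1 were at 0 in every library. CD68 was also at 0, but 85.6% of its exon bases are shared with other genes, where htseq leaves reads out, so its 0 says little about the marker. Neuroendocrine markers gave 3 tested of 7 with 2 called lower. ENO2, a neuronal enolase, fell by 1.93 on the log2 scale, and the list summed to 52.5 to 53.8 CPM and then 14.2 to 15.1 CPM. The part of these markers in the keratin values was not tested.

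The genes whose profile over the 4 libraries was most like that of KRT8, KRT18 and KRT19 were found by the Euclidean distance between centred log2 CPM profiles, searched over 9559 genes with a mean of at least 10 CPM. For KRT8 these were SAMHD1 (distance 0.0105), ZDHHC9 (0.0183) and TNFRSF10B (0.0226). The nearest to KRT18 were ATAD2B (0.00986), CASD1 (0.0163) and XKR8 (0.0291). KRT19 was closest to PRKCH (0.0248), ABCC4 (0.0403) and HSD17B11 (0.0985), whose log2 fold changes were 2.31, 2.27 and 2.23. The distances rest on 4 libraries in 2 groups.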

How the data were processed

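The authors deposited raw counts of reads per gene, made per the labels and the study's methods with HISAT2 2.1.0 on hg19 and htseq on GENCODE release 29, without strand. The table of the series and the files of single libraries differed in 0 cells. Depth was 17330338 to 18813193 gene reads, and 1022 identifiers without a symbol held 0.0594% of reads. Genes kept by filterByExpr (minimum count 10) were tested with the edgeR quasi-likelihood test (edgeR 4.0.16, R 4.3.3, TMM, robust), with Benjamini-Hochberg adjustment over 15626 genes. The script was tested on simulated data. The SE is the absolute log2 fold change divided by the square root of F. Coordinates, transcripts (the Ensembl canonical one) and shared bases came from GENCODE release 44 on GRCh37. Alternatives were other scalings, no filter, DESeq2 1.42.0, other call rules and leaving out each library. The 10 genes and all lists were chosen with earlier results of these data known. Named genes were the 10, UGT2B17, up to 4 called genes with the largest changes and the gene with the highest mean CPM of each list, and the 3 nearest profiles. No permutation test was used, since 2 against 2 libraries cannot give a two-sided p below 0.333. CD24 and PECAM1 had no match and were not analysed here, and some genes under the naming rule are not reported here.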

Additional observations from a re-analysis of the deposited data

Results flagged for a closer look

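The share of all read entries that could not be aligned was higher in both LN95(KO) libraries than in both LNCaP95 libraries. This share lies outside the gene counts used for the comparisons, and it was listed because the lowest knockout library, at 7.707%, was above the level of the parental libraries. Among parental libraries it was 3.85% and 3.96%, and among knockout libraries 8.05% and 7.71%. Ambiguous reads, which fall on more than 1 gene and include those on the overlap of KRT8 and KRT18, were 10.4% and 10.2% of the parental entries against 9.85% and 9.82% of the knockout entries. Whether either share bears on the keratin counts was not tested.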

How the results depend on the processing

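No paired analysis was possible because the LNCaP95 and LN95(KO) libraries share no replicate number. Under 5 other settings (RLE, upper-quartile or no scaling factors, no filter, DESeq2) the log2 fold change was 0.35 to 0.44 for KRT8, 2.27 to 2.37 for KRT19, -1.45 to -1.36 for KRT80 and 3.51 to 3.66 for KRT14, and these 4 kept their direction and their call. Leaving out 1 library gave 0.37 to 0.41 for KRT8, 2.25 to 2.37 for KRT19, -1.59 to -1.25 for KRT80 and 3.15 to 4.08 for KRT14. KRT18 was 0.03 to 0.12 under the 5 settings and -0.0369 to 0.163 when 1 library was left out, the lowest without LN95(KO) replicate 3. The difference in summed type II level was 0.38 on the log2 scale, 0.345 with upper-quartile factors and 0.439 with library totals, and that in type I level 0.13 to 0.29 with 1 library left out. Scaled by exon bases not shared with another gene, an alternative chosen after seeing the data, they were 0.365 and 0.179. Over all genes 2811 were called, 2358 with DESeq2, 3362 with no filter, 1687 with glmTreat, which tests against a 2-fold change, and 2606 to 2776 with 1 library left out, and 9349 passed with no fold criterion. With no filter the calls were 5 for other type II keratins, 2 for other type I keratins, 2 for transcription factors and 2 for club and hillock markers. With glmTreat they were 1 for desmosome genes, 0 for transcription factors, 3 for basal markers and 1 for stromal markers. Without the fold criterion they were 1 for other type I keratins, 11 for desmosome genes, 7 for hemidesmosome genes, 9 for transcription factors, 9 for basal markers, 14 for luminal markers, 2 for club and hillock markers and 6 for non-keratin filaments. Desmosome calls were 1 with library totals and 1 to 2 with 1 library left out. The smaller counts under glmTreat and larger ones without the fold follow from those rules; for the others the cause was not tested. Scalings moved the median of all genes between -0.05 and 0.05. Depth limits KRT7, KRT5, KRT15, KRT17 and TP63, for which these counts allow neither a change nor equal levels to be stated.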
